A study of Mus musculus with 77 samples.

Results

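10 genes of lipid entry, storage and breakdown were followed across mouse livers exposed to phthalate esters or phenobarbital. They were taken by name from a table of 18138 array IDs: Cd36, Slc27a1, Lpl, Fabp1, Fabp2, Plin2 (which stands under its older name Adfp), Cidec, Mgll, Gpd1 and Aqp3. All 10 were on the array. RNA came from livers of male B6C3F1 mice, a hybrid strain much used in carcinogenicity studies, after 7 days of exposure, and was read on Illumina bead arrays with 1 colour. The 77 samples fall into 18 groups, and each of the 4 compounds was given at 4 doses. DEHP is di(2-ethylhexyl) phthalate, a plasticizer with branched chains, and was given at 750, 1500, 3000 and 6000 ppm. BBP is n-butyl benzyl phthalate, with a butyl and a benzyl group, and was given at 1500, 3000, 6000 and 12000 ppm. DNOP is di-n-octyl phthalate, an isomer of DEHP with linear chains, and was given at 1250, 2500, 5000 and 10000 ppm. Phenobarbital, a barbiturate and an inducer of liver enzymes that is no phthalate, was given at 75, 150, 300 and 600 ppm. Each dose group holds 4 samples, except 3 at 10000 ppm DNOP, and there were 10 phthalate controls and 4 phenobarbital controls at 0 ppm. Each label also carries a number, whose meaning is not given. Every phthalate dose sample has its own number. The phthalate controls carry only the numbers 32, 45, 63 and 75, and the phenobarbital controls 41, 82 and 12. In each phenobarbital dose group samples share numbers too, such as 13 and 20 at 75 ppm. These groups therefore hold fewer numbers than samples. The labels give no age and do not name the medium in which the doses were mixed. Whether every sample is its own animal is not stated either, and the p-values therefore reflect variation among samples, which may be technical in part. Per the design text, the 3 phthalates span a range of PPARα activation and of liver tumour outcome, strongest for DEHP and weakest for DNOP. The comparisons below ask how far genes of lipid handling follow that order.

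Fatty acids reach a liver cell from albumin in blood, with Cd36 and the transport proteins of the Slc27a family at the membrane, and from lipoprotein triglyceride, which lipoprotein lipase (Lpl) cleaves. Inside cells binding proteins carry them, such as Fabp1, the liver form, and Fabp2, the intestinal form. Surplus is stored as triglyceride in droplets coated by perilipins such as Plin2, and Cidec promotes the fusion of droplets into larger ones. Lipases take triglyceride apart again, and Mgll cleaves the last fatty acid from the glycerol backbone. Gpd1 interconverts dihydroxyacetone phosphate and glycerol 3-phosphate, the backbone of new triglyceride, and Aqp3 is a channel for water and glycerol. PPARα is a nuclear receptor that binds fatty acids and some phthalate metabolites and switches on genes of fatty acid oxidation in liver. It binds DNA together with RXR, at direct repeats of a short sequence that are spaced by 1 base.

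The 250 bases before the start of each gene were searched for that repeat, which was written as AGGTCA, 1 base of any kind, AGGTCA, on both strands, counting how many of the 12 fixed bases matched at the best position. The RefSeq promoter table (GRCm38.p6) holds 12 such windows for 8 of the 10 genes, and Lpl and Gpd1 were not in it. The windows of the 4 genes that are in the table and were called higher at some dose of DEHP are shown. For each the window with the best match is printed 5′ to 3′ on the strand of the gene, and capitals mark that match. Slc27a1 has another window with as many matches, and of these tied windows the one that starts first on the chromosome is printed. They lie at chr8:71569347-71569596 (plus strand), chr4:86670060-86670309 (minus), chr6:113435761-113436010 (minus) and chr6:88724162-88724411 (plus).
Slc27a1: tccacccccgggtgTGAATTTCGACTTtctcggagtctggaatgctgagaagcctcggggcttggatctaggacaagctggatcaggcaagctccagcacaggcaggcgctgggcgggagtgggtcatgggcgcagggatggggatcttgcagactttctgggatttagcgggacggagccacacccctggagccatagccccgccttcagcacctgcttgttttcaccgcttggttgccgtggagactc
Plin2: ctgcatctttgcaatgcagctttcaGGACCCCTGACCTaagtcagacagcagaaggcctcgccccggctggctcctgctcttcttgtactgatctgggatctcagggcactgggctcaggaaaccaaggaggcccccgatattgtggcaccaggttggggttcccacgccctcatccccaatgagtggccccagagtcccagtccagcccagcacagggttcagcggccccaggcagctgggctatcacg
Cidec: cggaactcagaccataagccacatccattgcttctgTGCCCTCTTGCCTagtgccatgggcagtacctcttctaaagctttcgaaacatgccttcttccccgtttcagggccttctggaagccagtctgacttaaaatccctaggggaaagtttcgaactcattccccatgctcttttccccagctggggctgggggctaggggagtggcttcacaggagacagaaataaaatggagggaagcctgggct
Mgll: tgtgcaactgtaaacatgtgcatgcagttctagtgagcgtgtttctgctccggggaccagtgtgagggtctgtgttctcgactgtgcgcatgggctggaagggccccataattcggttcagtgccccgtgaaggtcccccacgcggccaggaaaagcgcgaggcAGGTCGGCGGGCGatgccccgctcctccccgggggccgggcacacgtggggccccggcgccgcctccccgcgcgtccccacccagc
Plin2 matched 10 of 12 bases, between positions -225 and -213 from the start, on the opposite strand. At least 10 matches stood in 3.24% of all 32851 windows of this length. Cidec matched 9 of 12, which 21.3% of all windows reach, and Slc27a1 and Mgll matched 8, which 74.5% reach. These shares are per window, and Slc27a1, Cidec and Mgll each have more windows than Plin2 from which the best was taken. The best match of the 8 genes was in Fabp1, with 11 of 12 bases (0.484% of all windows), and Cd36 had 10. Both of these genes were below detection on these arrays. Fabp2 had 9 matches and Aqp3 7. A match is a description of letters and not a binding site, and other parts of the genes were not searched.

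The signal is bead brightness, in log2 after background correction and quantile normalization, with an offset of 16, so a gene at background stands at about 4.2 to 4.7. A detection p-value under 0.05 against the negative control beads counted as detected. Between 36.9% and 46.6% of the genes were detected per array (median 44.3%), and the 4 phenobarbital controls lay between 36.9% and 41.1%, near the low end. Hepatocyte markers were present: 9 of 10 were on the array, 9 were detected on at least 3 arrays and 6 on all 77. The samples are whole liver, so fewer cells of a type and less RNA per cell cannot be told apart. Lpl, Plin2, Mgll and Gpd1 were detected on all 77 arrays. Slc27a1 was detected on 35, Cidec on 11 and Aqp3 on 4. Cd36, Fabp1 and Fabp2 were detected on none, in any group.

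Cd36, the fatty acid translocase, lay between 4.21 and 4.72 over all 77 samples and its lowest detection p was 0.0639. Fabp1, the liver fatty acid binding protein, lay between 4.21 and 4.48 (lowest detection p 0.211). Fabp2, the intestinal form, lay between 4.20 and 4.60 (lowest detection p 0.102). All 3 were not well above background on every array, so no fold is given for them and none entered a test. Fabp1 is known as one of the most abundant proteins of the hepatocyte, yet its array ID read at background also in the controls, and the exposures could not be compared for these 3 IDs. A gene was tested when it was detected on at least 3 arrays, which 7 of the 10 genes and 11324 of all IDs passed. It was called higher or lower when its limma p-value, adjusted over all tested IDs, was under 0.05. Outside the DEHP groups Slc27a1 was detected on 22 arrays and Cidec on 4.

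Lpl, whose product frees fatty acids from lipoprotein triglyceride, was higher at every dose of DEHP. The 10 phthalate controls lay between 9.06 and 9.91 (median 9.63). The 4 samples at 750 ppm DEHP read 10.90, 11.00, 11.04 and 10.43, all above every control. They were 2.47-fold over the controls (95% interval 1.64 to 3.73, limma adjusted p = 0.00784). At 1500 ppm the samples read 11.21, 10.90, 11.41 and 10.48, a 2.76-fold rise (1.82 to 4.17, adjusted p = 0.000675). At 3000 ppm they read 11.42, 11.56, 11.61 and 10.80, a 3.49-fold rise (2.31 to 5.28, adjusted p = 8.52e-06). At 6000 ppm they read 11.22, 11.81, 11.88 and 11.18, a 3.95-fold rise (2.62 to 5.97, adjusted p = 9.86e-07). None of the 16 DEHP samples overlapped the controls, and the group means went up with dose. The step from 750 to 6000 ppm was 1.60-fold (0.986 to 2.59) and did not pass the test (adjusted p = 0.569). The call at 750 ppm is the least stable of these: it was lost without replicate 2 of that group (adjusted p = 0.0508), with samples of 1 label number averaged (0.0601) and with each array centred on its median (0.139).

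With BBP, Lpl passed the test at the highest dose and at no lower one. The samples at 12000 ppm read 11.55, 10.94, 10.89 and 9.99, 2.47-fold over the controls (1.64 to 3.73, adjusted p = 0.00457). Without its first sample the change was 1.07 on the log2 scale with an adjusted p of 0.0915. At 6000 ppm the samples ran from 8.90 to 11.24, the widest spread of any group for this gene (SD 1.03, n = 4). The lower BBP groups had means of 9.81 to 10.04. The 4 DNOP groups had means between 9.65 and 9.90, and the largest change, 0.36 on the log2 scale at 1250 ppm, had an interval of -0.23 to 0.96. The phenobarbital controls stood at 10.12 ± 0.35 (SD, n = 4), and no phenobarbital dose passed the test.

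**Figure D1:**
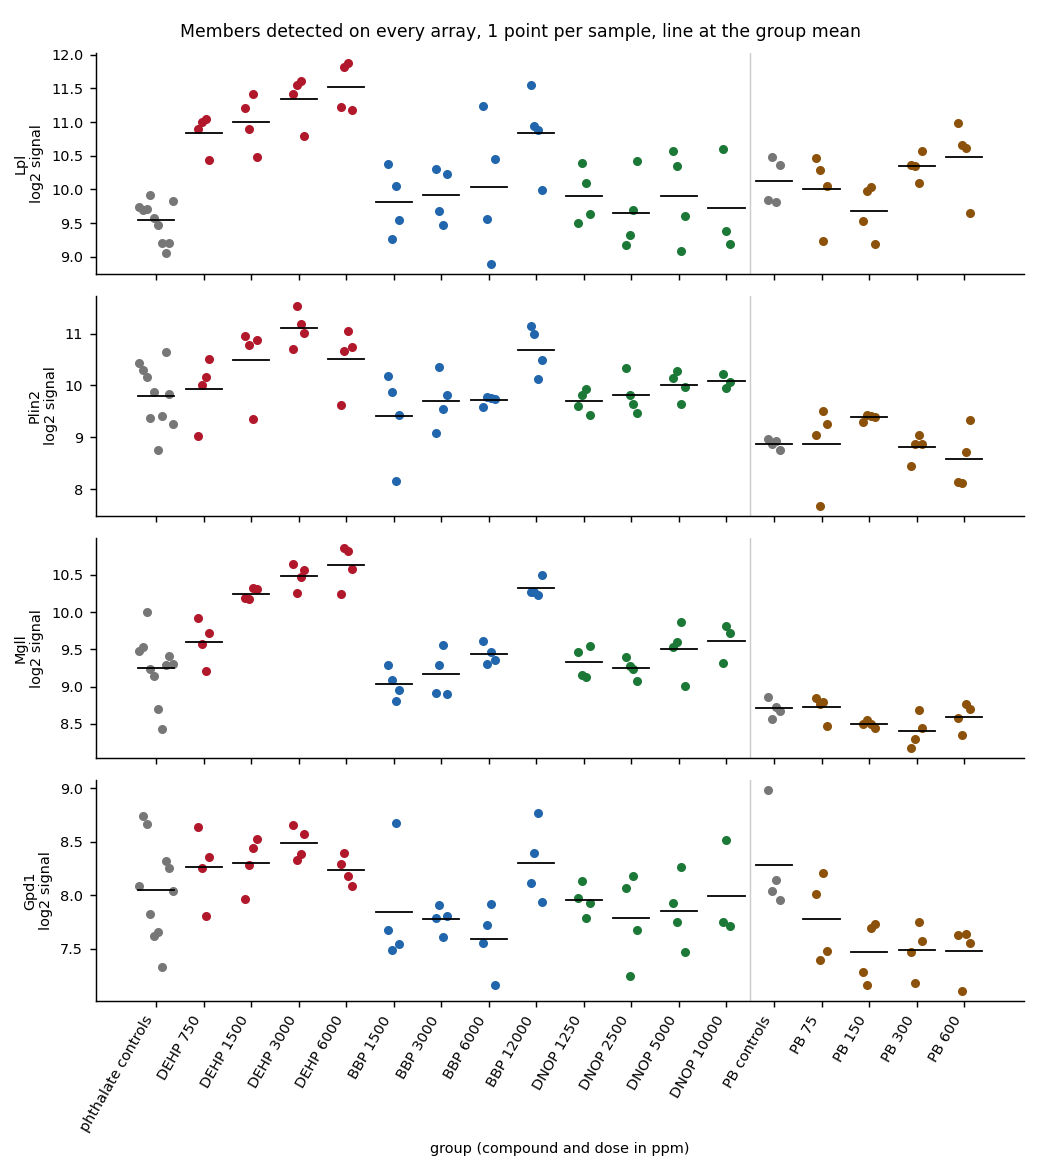
Background-corrected, quantile-normalized log2 signal of Lpl, Plin2, Mgll and Gpd1 (y axes, each with its own range) in each of the 77 samples, by compound and dose in ppm (x axis). Each point is 1 sample and each line a group mean, the controls are grey, and the vertical line parts the phthalate from the phenobarbital samples. Lpl at every DEHP dose, and Mgll from 1500 ppm DEHP and at 12000 ppm BBP, lie above all 10 phthalate controls.

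Slc27a1, a fatty acid transport protein with acyl-CoA synthetase activity that is best known from muscle and fat, was at or near background in most groups and rose from 1500 ppm DEHP. In the phthalate controls it ran from 4.37 to 4.87 (median 4.67) and was detected in 5 of 10. At 750 ppm DEHP the samples read 4.94, 4.60, 4.58 and 4.58, and 1 of 4 was detected. At 1500 ppm they read 5.65, 5.69, 5.33 and 5.53, at 3000 ppm 6.54, 6.35, 6.47 and 6.61, and at 6000 ppm 5.17, 6.76, 6.46 and 6.91. All 12 of these were detected and lay above every control. Over the controls this was 1.86-fold at 1500 ppm (1.50 to 2.30, adjusted p = 4.16e-05), 3.58-fold at 3000 ppm (2.89 to 4.43, adjusted p = 3.32e-14) and 3.19-fold at 6000 ppm (2.58 to 3.95, adjusted p = 4.23e-13). The 6000 ppm mean lay below that of 3000 ppm with 1 sample, replicate 1 at 5.17, far under the other 3, and without it the change at 6000 ppm was 2.06 on the log2 scale. The step from 750 to 1500 ppm was 1.83-fold (adjusted p = 0.0132), from 1500 to 3000 ppm 1.92-fold (adjusted p = 0.00738), and from 3000 to 6000 ppm 0.891-fold (0.695 to 1.14, adjusted p = 1), in comparisons of neighbouring doses that were added after the group means were seen. The first of these steps was lost in 4 of the 5 other scalings and without any 1 of replicates 2, 3 and 4 at 750 ppm or replicates 1, 2 and 4 at 1500 ppm (adjusted p = 0.0576 to 0.0873). The second was lost without replicate 3 at 1500 ppm (0.0651) or replicate 4 at 3000 ppm (0.0522).

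At 12000 ppm BBP the samples read 5.51, 5.09, 5.09 and 5.39, all detected and above every control, a 1.53-fold rise (1.24 to 1.90, adjusted p = 0.0111). That call was lost without replicate 1 (adjusted p = 0.109) or replicate 4 (0.0579) of the group, with samples of 1 label number averaged (0.0936), and in 3 of the 5 other scalings. The other BBP groups had means of 4.55 to 4.74, the DNOP groups 4.63 to 4.85 and the phenobarbital dose groups 4.51 to 4.62, and none of these passed the test. The size of the fold moved with the treatment of the background: over the scalings tried, the fold ran from 1.07 to 1.86 at 1500 ppm DEHP, from 1.23 to 4.05 at 3000 ppm and from 1.22 to 3.68 at 6000 ppm.

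**Figure D2:**
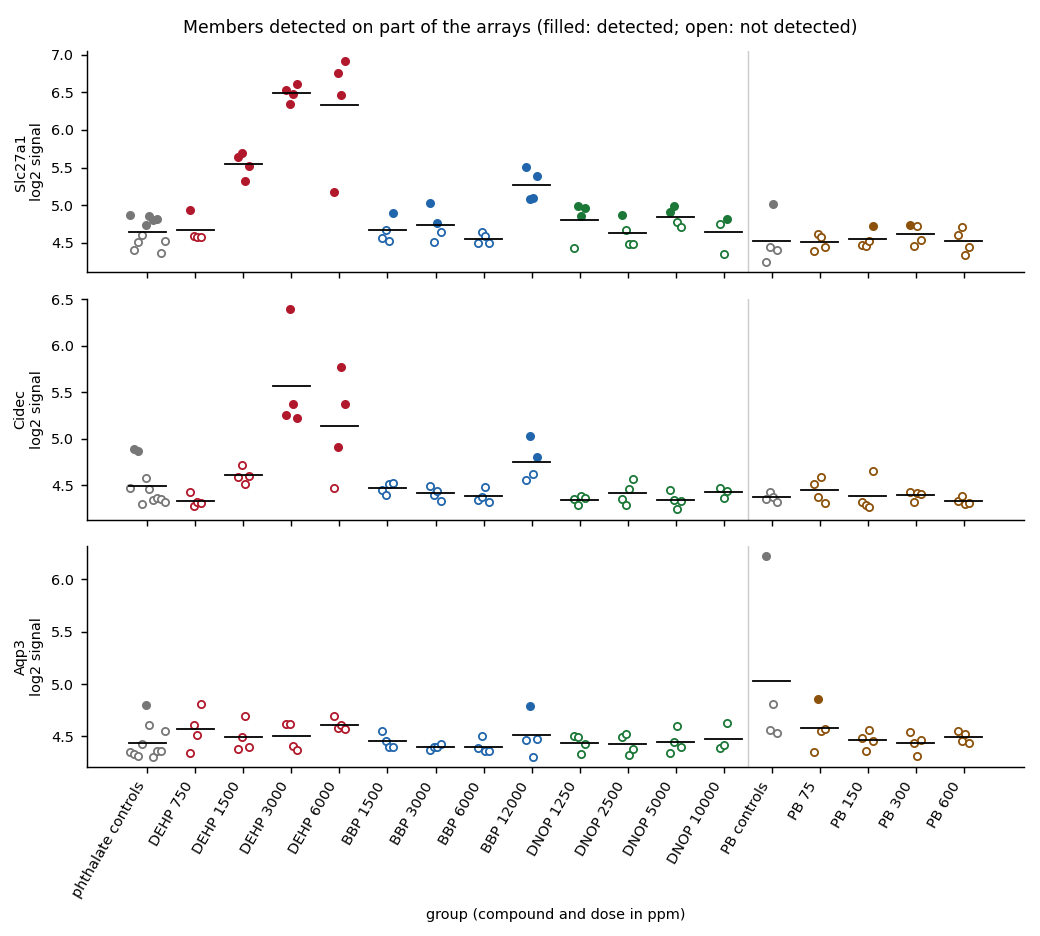
Log2 signal of Slc27a1, Cidec and Aqp3 (y axes) in each sample by compound and dose in ppm (x axis), with filled points where the gene was detected, open points where it was not, and a line at each group mean. Slc27a1 stands above the controls from 1500 ppm DEHP and at 12000 ppm BBP, Cidec is detected in all 4 samples at 3000 ppm DEHP, and the mean of Aqp3 in the phenobarbital controls is carried by 1 sample at 6.22.

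Of the droplet proteins, Plin2 coats the droplets of most cell types, liver cells included, and is degraded when it is not bound to a droplet. It varied widely in the phthalate controls, from 8.75 to 10.64 with a median of 9.85. At 3000 ppm DEHP the samples read 10.71, 11.54, 11.18 and 11.01, all above every control, and Plin2 was 2.50-fold over the controls (1.64 to 3.81, adjusted p = 0.00188). At no other dose of any compound did Plin2 pass the test in the fit described here. At 750 ppm DEHP the samples read 9.02, 10.01, 10.17 and 10.52, at 1500 ppm 10.95, 10.78, 9.35 and 10.88, and at 6000 ppm 9.62, 10.66, 11.04 and 10.73. Each of these overlapped the controls, with 1.63-fold at 1500 ppm (1.07 to 2.48, adjusted p = 0.204) and 1.66-fold at 6000 ppm (1.09 to 2.52, adjusted p = 0.132). In both groups 1 sample lay low. Without replicate 3 at 1500 ppm the change was 1.08 on the log2 scale (adjusted p = 0.0368), and without replicate 1 at 6000 ppm it was 1.03 (adjusted p = 0.0331). With arrays weighted by quality Plin2 was called at both doses (1.18, adjusted p = 0.000471, and 0.89, adjusted p = 0.0141), and with median centring at 6000 ppm (1.05, adjusted p = 0.0442). At 12000 ppm BBP the samples read 11.15, 10.99, 10.12 and 10.49, 1.87-fold over the controls (1.22 to 2.84, adjusted p = 0.101), and with array weights this was called too (1.18 on the log2 scale, adjusted p = 0.000872). The DNOP groups had means of 9.69 to 10.08.

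Cidec, a droplet fusion protein that is abundant in white fat, was below detection in most samples. Of the phthalate controls 2 of 10 detected it, and they ran from 4.30 to 4.89 with a median of 4.41. At 3000 ppm DEHP the samples read 5.26, 6.40, 5.38 and 5.22, all detected and above every control, 2.10-fold (1.75 to 2.51, adjusted p = 5.38e-09). At 6000 ppm they read 4.48, 4.91, 5.78 and 5.37, of which 3 were detected, 1.56-fold over controls that were mostly not detected (1.30 to 1.87, adjusted p = 0.000316), and the lowest of them lay among the controls. That sample, replicate 1, was also the lowest of its group in Slc27a1, Plin2 and Mgll, but not in Lpl, Gpd1 and Aqp3. At 750 and 1500 ppm DEHP none of the 4 samples detected Cidec. Cidec rose from 1500 to 3000 ppm (adjusted p = 0.000461), in a comparison of neighbouring doses that was added after the group means were seen. On this scaling the mean at 3000 ppm was at least 1.73-fold over the detection level of the 1500 ppm arrays, that at which genes pass detection. At 1500 ppm Cidec was not well above background. At 12000 ppm BBP 2 of 4 samples detected it, at 5.03 and 4.80, and the change did not pass the test (1.20-fold, 0.9999 to 1.44, adjusted p = 0.343). In the other 3 BBP groups, the 4 DNOP groups, the phenobarbital controls and the 4 phenobarbital dose groups it was detected in no sample. Over the scalings tried its fold ran from 1.10 to 2.31 at 3000 ppm DEHP and from 1.05 to 1.72 at 6000 ppm, and both calls were kept in each, so the size of these folds is not settled. The phthalate controls that detected it were replicates 2 and 3, 2 of the 3 that carry the number 32 in their labels.

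Cidec and Lpl are also genes of fat cells, and Lpl of macrophages, so the markers of those cells are given beside them. Of the fat cell markers, Adipoq, Plin1, Fabp4 and Cidea were detected on no array. Retn was detected on 1 array, Cfd on 12, Lep on 15 and Lipe on 43. Only Thrsp and Pnpla2 were detected on all 77, so the summed level of this list is no measure of fat cell content. The summed level of the fat cell list, on the linear scale of the normalized signal, had a mean of 1491 in the phthalate controls (783 to 2955 over samples), 1087 at 3000 ppm DEHP (840 to 1393) and 1511 at 6000 ppm (1069 to 2441). The summed level of the macrophage list, of which 9 of 10 were detected on at least 3 arrays, was 1720 in the controls (826 to 3188), 1448 at 3000 ppm DEHP (910 to 2442) and 2169 at 6000 ppm (1829 to 2517). No marker of the macrophage list was called at either dose, and of the fat cell list only Pnpla2 was, higher at 6000 ppm. The summed level of the hepatocyte list was 46290 in the controls (43075 to 53459) and 38669 at 6000 ppm DEHP (37022 to 40036). That of the red cell list was 9000 in the controls (4888 to 13901) and 4303 at 3000 ppm DEHP (3639 to 5155). The part of these shifts in the results was not tested.

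Mgll, the monoglyceride lipase, rose at the 3 upper doses of DEHP and at the highest dose of BBP. The phthalate controls lay between 8.44 and 10.01 (median 9.30). At 750 ppm DEHP the samples read 9.93, 9.57, 9.20 and 9.72, within the range of the controls (1.29-fold, 1.04 to 1.59, adjusted p = 0.260). At 1500 ppm they read 10.18, 10.17, 10.32 and 10.31, at 3000 ppm 10.64, 10.26, 10.47 and 10.57, and at 6000 ppm 10.25, 10.86, 10.82 and 10.57. All 12 lay above every control. The gene was 2.01-fold over the controls at 1500 ppm (1.63 to 2.48, adjusted p = 3.24e-06), 2.37-fold at 3000 ppm (1.92 to 2.92, adjusted p = 5.36e-09) and 2.61-fold at 6000 ppm (2.11 to 3.22, adjusted p = 1.56e-10). These 3 calls were kept in all alternatives run. From 750 to 6000 ppm it rose 2.03-fold (1.59 to 2.60, adjusted p = 0.000121).

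At 12000 ppm BBP the Mgll samples read 10.28, 10.27, 10.23 and 10.49, all above every control, 2.11-fold (1.71 to 2.60, adjusted p = 1.14e-06). This was 1.85-fold over the 6000 ppm BBP group (1.44 to 2.36, adjusted p = 0.00603, lost under median centring, 0.546) and 2.43-fold over the 1500 ppm group (1.90 to 3.11, adjusted p = 3.34e-06). The comparison with 6000 ppm was added after the group means were seen. The 3 lower BBP groups had means of 9.04, 9.17 and 9.43 and did not pass the test against the controls. With DNOP the means were 9.33, 9.25, 9.50 and 9.61 from the lowest to the highest dose. The change at 10000 ppm was 1.29-fold (1.03 to 1.63, adjusted p = 0.903) and passed the test only when arrays were weighted by quality (adjusted p = 0.0308).

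Gpd1, the cytosolic glycerol 3-phosphate dehydrogenase, did not pass the test at any phthalate dose. The phthalate controls lay between 7.33 and 8.75 (median 8.06). The samples at 3000 ppm DEHP read 8.65, 8.33, 8.39 and 8.57, within the range of the controls, 1.36-fold (1.02 to 1.82, adjusted p = 0.199). It was called in 3 alternatives: with each array centred on its median (0.79 on the log2 scale, adjusted p = 0.00447, where the median of all genes moved by 0.14), with array weights (0.0130) and without the controls numbered 32 (0.0460). Under the same centring it was also called at 6000 ppm (0.58, adjusted p = 0.0393). The means ran from 8.24 to 8.49 over the DEHP groups, 7.59 to 8.30 over the BBP groups and 7.79 to 7.99 over the DNOP groups. Aqp3 was not well above background on any array of the DEHP and DNOP groups, was detected in 1 of 16 BBP samples and 1 of 10 phthalate controls, and changed in none of these comparisons.

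Counted over the 10 genes, of which 7 could be tested, 1 was called higher at 750 ppm DEHP, 3 at 1500 ppm, 5 at 3000 ppm and 4 at 6000 ppm, and none was called lower. Of all genes tested, 1.14%, 2.53%, 4.45% and 5.26% were called higher at these doses. With BBP 3 were called higher at 12000 ppm, where 1.5% of all genes tested were. At 1500, 3000 and 6000 ppm BBP none was called, and of all genes 0%, 0% and 0.0795% were called in either direction. None was called at any dose of DNOP, where 0%, 0.238%, 0.212% and 0.0618% of all genes were called in either direction from the lowest to the highest dose. The unadjusted p was under 0.05 for 1 of the 7 genes at 10000 ppm DNOP and for none of them at the other DNOP doses. The intervals at 10000 ppm DNOP reach up to 1.80-fold for Lpl, 1.96-fold for Plin2, 1.63-fold for Mgll and 1.26-fold for Slc27a1. Between the highest and the lowest dose, Slc27a1, Cidec and Mgll were called higher with DEHP (0.971% of all genes were), Mgll with BBP (0.636%) and none with DNOP, where 0% of all genes were called in either direction. Comparisons of neighbouring doses were added after the group means were seen. From 750 to 1500 ppm DEHP 1 gene was called higher against 0.106% of all genes, from 1500 to 3000 ppm 2 against 0.053%, and from 6000 to 12000 ppm BBP 1 against 0.132%. From 3000 to 6000 ppm DEHP none was called, and 0.00883% of all genes were in either direction.

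**Figure D3:**
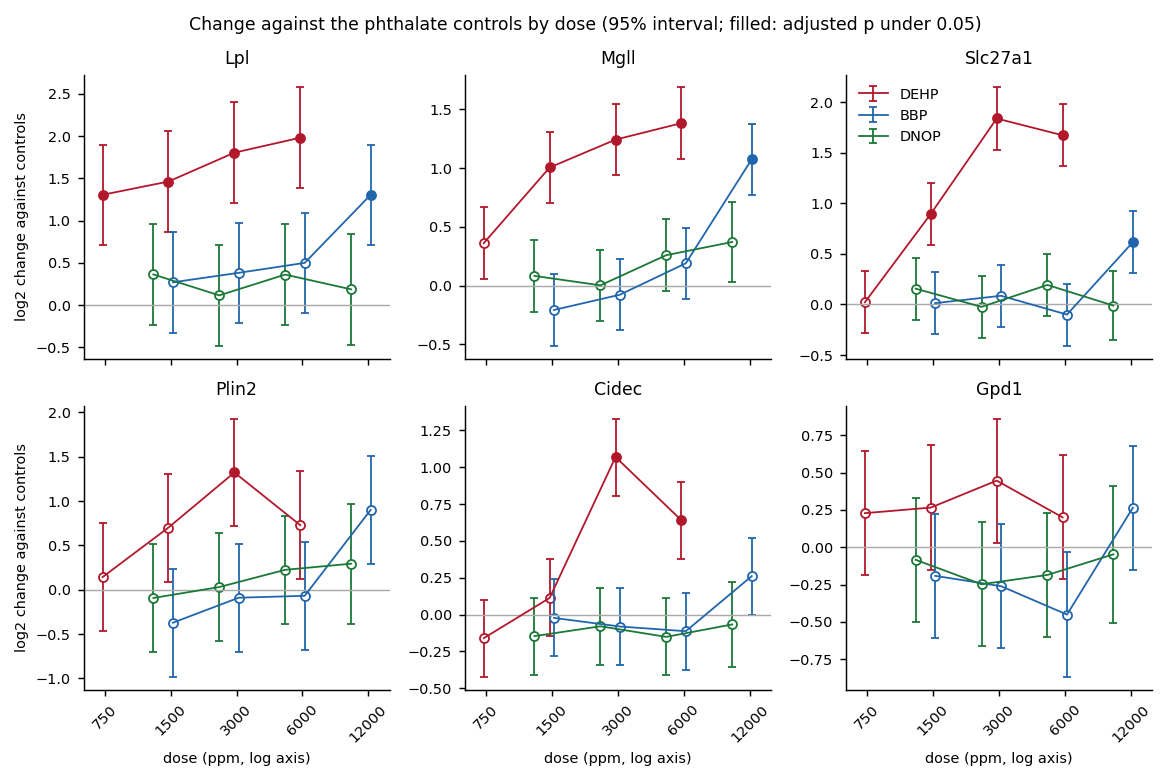
Log2 change of 6 genes against the 10 phthalate controls (y axis) by dose in ppm (x axis, log scale) for DEHP, BBP and DNOP, with 95% intervals from the limma fit of all 77 samples. Points are filled where the adjusted p is under 0.05, and the points of DEHP and BBP are moved slightly apart to keep their bars visible. Lpl, Mgll and Slc27a1 are called with DEHP and at 12000 ppm BBP, Cidec and Plin2 only with DEHP, and no point of DNOP is filled.

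DEHP and BBP, which differ in the groups of the ester (branched ethylhexyl chains against a butyl and a benzyl group), shared the doses 1500, 3000 and 6000 ppm. Over these 3 doses and the 7 tested genes 21 differences were tested, each adjusted over all genes, and 11 were called, all higher with DEHP. At 1500 ppm Mgll was 2.32-fold higher with DEHP than with BBP (1.81 to 2.96, adjusted p = 4.02e-06) and Slc27a1 was called higher (adjusted p = 0.00173). Only 1 of 4 BBP samples detected Slc27a1, its fold of 1.84 ran down to 1.07 over the scalings tried, and at 1.07 (background taken from all detection p-values) the call was lost (0.130). Of all genes 1.12% were called higher with DEHP at that dose. Lpl was 2.29-fold higher there without a call (1.41 to 3.71, adjusted p = 0.058). It was called with array weights (0.00616) and without replicate 1 of BBP (0.0354) or replicate 4 of DEHP (0.0496). Plin2 was 2.10-fold higher without a call (1.28 to 3.45, adjusted p = 0.140), and was called with array weights (0.0110) and without replicate 1 of BBP (0.0478) or replicate 3 of DEHP (0.0192). At 3000 ppm 5 genes were called, against 2.09% of all genes. Slc27a1, detected in 2 of 4 BBP samples, was 3.37-fold higher (2.63 to 4.33, and from 1.22 to 3.94 over the scalings). Lpl was 2.68-fold higher (1.66 to 4.35), Plin2 2.66-fold (1.62 to 4.36) and Mgll 2.50-fold (1.95 to 3.19). Cidec, which no BBP sample detected at this dose, was at least 1.72-fold higher on this scaling. The DEHP and BBP groups did not overlap in any of these 5 genes, which is no further support, since the genes were picked by their call on the same samples. The call of Plin2 was lost without replicate 1 of BBP (0.0680) or replicate 2 of DEHP (0.0536). At 6000 ppm 4 genes were called, against 1.67% of all genes. Mgll was 2.29-fold higher (1.79 to 2.92), Slc27a1 at least 2.97-fold and Cidec at least 1.30-fold, against a BBP group in which neither of the latter was well above background. These bounds hold on this scaling, and over the scalings tried the fitted folds ran from 1.23 to 4.09 and from 1.06 to 1.93. In Cidec the groups overlapped. Lpl was 2.80-fold higher (1.73 to 4.53, adjusted p = 0.00686), with 1 BBP sample at 11.24 inside the range of the DEHP group, and this call was lost under median centring of the arrays (0.123) and without replicate 2 (0.0534) or 3 (0.125) of BBP or replicate 2 of DEHP (0.05004). Plin2 was 1.74-fold higher at 6000 ppm without a call (1.06 to 2.84, adjusted p = 0.405). Gpd1 was 1.37-, 1.63- and 1.57-fold higher at the 3 doses and Aqp3 differed by at most 0.21 on the log2 scale, without a call. The upper bounds of the intervals for Gpd1 were 1.92-, 2.29- and 2.20-fold, and at 3000 ppm it was called under median centring (0.00164) and with array weights (0.00491).

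**Figure D4:**
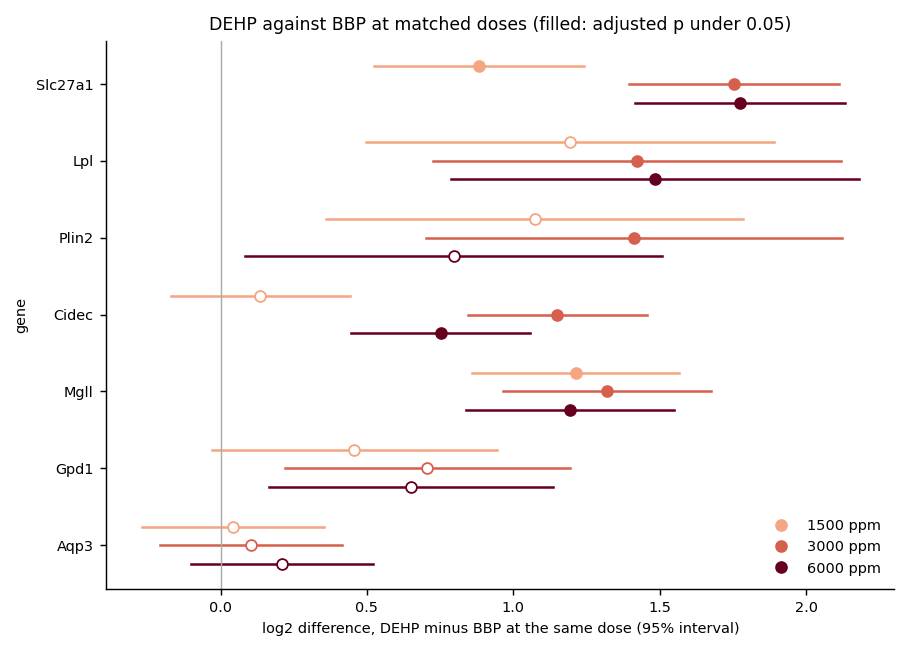
Log2 difference between DEHP and BBP at the same dose (x axis, DEHP minus BBP) for the 7 tested genes (y axis), with 95% intervals, at 1500, 3000 and 6000 ppm from light to dark. Filled points have an adjusted p under 0.05, and all 21 differences lie above 0.

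DNOP shares no dose with DEHP or BBP, so the values of these isomers stand side by side and were not compared by a test. Lpl stood at 11.34 ± 0.37 at 3000 ppm DEHP and at 9.65 ± 0.56 at 2500 ppm DNOP (SD, n = 4 each). Mgll stood at 10.63 ± 0.28 at 6000 ppm DEHP, at 9.50 ± 0.36 at 5000 ppm DNOP (n = 4 each) and at 9.61 ± 0.27 at 10000 ppm DNOP (n = 3). Slc27a1 stood at 6.33 ± 0.79 at 6000 ppm DEHP and at 4.64 ± 0.25 at 10000 ppm DNOP.

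With phenobarbital, 2 of the 10 genes were called at 150, 300 and 600 ppm, Gpd1 and Aqp3, and both were lower than in the phenobarbital controls. Of all genes tested, 6.87%, 5.27% and 5.63% were called lower at these doses. At 75 ppm none of the 7 was called, while 6.5% of all genes were called in either direction. Gpd1 read 8.98, 8.05, 8.14 and 7.96 in the controls. It read 7.28, 7.16, 7.70 and 7.73 at 150 ppm, 7.47, 7.18, 7.75 and 7.57 at 300 ppm, and 7.63, 7.11, 7.64 and 7.55 at 600 ppm, all below every control. Relative to the controls the levels were 0.565-fold (0.398 to 0.8004, adjusted p = 0.0246), 0.574-fold (0.405 to 0.814, adjusted p = 0.0351) and 0.570-fold (0.402 to 0.808, adjusted p = 0.028). The first control, at 8.98, is the array with the lowest share of detected genes of all 77 (36.9%). Without it the changes were -0.58, -0.56 and -0.57 on the log2 scale with adjusted p of 0.186, 0.244 and 0.213. The call at 150 ppm was also lost without replicate 1 (0.0581) or 2 (0.0865) of the dose group, that at 300 ppm without replicate 1 (0.0667) or 2 (0.119), and that at 600 ppm without replicate 2 (0.114) or 4 (0.0528). With samples of 1 label number averaged all 3 calls were lost (0.0766, 0.0978 and 0.0804), and with array weights that at 300 ppm was (0.0636). With each array centred on its median in place of quantile normalization, Gpd1 was higher and not lower, by 0.29, 0.18 and 0.29, in a scaling that raised the median of all genes by 0.55, 0.47 and 0.53 in these comparisons, so that relative to this shift the values were -0.26, -0.29 and -0.23. None of them passed the test. The dimness of the phenobarbital controls moves with this result, and its part in it was not tested.

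Aqp3 in the phenobarbital controls read 6.22, 4.57, 4.81 and 4.53, and the 6.22 of the dimmest array was the only one detected. The groups at 150, 300 and 600 ppm read 4.31 to 4.57 and did not detect it in any of 12 samples. Aqp3 was called lower in these groups (adjusted p = 0.0126, 0.0109 and 0.0166), but no fold is given, since only 1 control detected it. Without that 1 array the changes were -0.17, -0.20 and -0.14 on the log2 scale and no call was left (adjusted p = 0.369, 0.337 and 0.498), so the Aqp3 calls rest on 1 sample. The call at 600 ppm was also lost with array weights (0.0642). At 75 ppm Aqp3 was not called (-0.47 on the log2 scale, adjusted p = 0.0658) and was called without replicate 2 (0.0131), 3 (0.0489) or 4 (0.0170) of the controls, which leaves more weight on that array. Lpl, Plin2, Mgll, Slc27a1 and Cidec were not called at any phenobarbital dose. Plin2 at 150 ppm read 9.29, 9.43, 9.41 and 9.40, above all 4 controls (8.76 to 8.96), a difference of 1.42-fold that did not pass the test (0.850 to 2.36, adjusted p = 0.385). With each array centred on its median, which moved the median gene by the values given beside Gpd1, Lpl at 300 and 600 ppm (1.15 and 1.31 on the log2 scale), Plin2 at 150 ppm (1.58) and Mgll at 150 and 600 ppm (0.88 and 0.98) were called higher. Relative to the shift of the median gene these were 0.69 and 0.78, 1.03, and 0.33 and 0.45. With quantile normalization Mgll lay at -0.21 and -0.11 there. Between 600 and 75 ppm none of the 7 genes was called, and 1.19% of all genes were in either direction.

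The controls themselves differed. Mgll was 0.692-fold in the phenobarbital controls relative to the phthalate controls (0.559 to 0.857, adjusted p = 0.0301), where 1.51% of all genes were called lower. That call was lost with samples of 1 label number averaged (0.169), with array weights (0.149), without the controls numbered 32 (0.157), and without phthalate control 3 (0.0528) or phenobarbital control 1 (0.0660), 2 (0.0982) or 4 (0.0627). Plin2 was 0.534-fold (0.348 to 0.819) without a call (adjusted p = 0.0774), and was called without phthalate control 6 (0.0383) and under median centring (0.000762). Gpd1 was not called (0.25 on the log2 scale, adjusted p = 0.544), but under median centring it was lower and called (-0.61, adjusted p = 0.0121). Aqp3 was called higher (adjusted p = 0.00344), where 3.15% of all genes were, but only 1 of 4 and 1 of 10 samples detected it and no fold is given. That call was lost without the dimmest array (adjusted p = 0.392) and with array weights (0.0744). Among the phthalate controls, the 3 that carry the label number 32 were higher than the other 7 in several of these genes. They averaged 10.29 ± 0.14 against 9.59 ± 0.60 in Plin2, 9.67 ± 0.29 against 9.08 ± 0.36 in Mgll, 8.50 ± 0.36 against 7.86 ± 0.36 in Gpd1 and 4.75 ± 0.24 against 4.39 ± 0.10 in Cidec (SD, n = 3 and 7). What the number denotes is not given in the labels. Without these 3 the change of Plin2 at 3000 ppm DEHP was 1.53 on the log2 scale in place of 1.32, that of Mgll at 750 ppm DEHP was 0.54 with an adjusted p of 0.0268, and that of Plin2 at 12000 ppm BBP was 1.11 with an adjusted p of 0.0322.

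The other genes of these pathways were taken from 7 lists that hold 86 genes, of which 80 were on the array and 68 were tested. At 6000 ppm DEHP 21 were called higher and 3 lower, where 5.26% of all genes tested were called higher and 4.16% lower, and the median change was 0.19 on the log2 scale against -0.0027 over all genes tested. At 12000 ppm BBP 14 were called higher and 1 lower (median 0.15), against 1.5% and 1.45% of all genes. At 10000 ppm DNOP 3 were called higher (median 0.096), against 0.0618%. At 600 ppm phenobarbital 1 was called higher and 2 lower (median 0.018), no larger a share than the 4.33% and 5.63% of all genes. The following values are for 6000 ppm DEHP against the controls, and beside the shares of all genes called there a single call in a list of this length says little about the list.

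In the uptake list 4 of 17 tested genes were called higher and 1 lower. Vldlr, a receptor for triglyceride-rich lipoproteins, was 2.34-fold (adjusted p = 1.3e-08), and the acyl-CoA synthetases Acsl4 and Acsl5 were 1.57-fold and 1.54-fold. Scarb1, the receptor for HDL, was 0.699-fold (adjusted p = 0.0327). Fabp4, the fatty acid binding protein of fat cells, was detected on no array. Among the 9 tested partners of Lpl none was called higher and 1 lower, Apoa5, an activator of the enzyme (0.548-fold, adjusted p = 0.0301). Angptl4, which inhibits Lpl and is a known PPARα target, was at 1.23-fold (adjusted p = 0.799), and Gpihbp1, which carries Lpl to the capillary surface, at 1.05-fold (adjusted p = 0.891).

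Of 12 tested droplet genes 4 were called higher and none lower. Hsd17b11, a dehydrogenase found on droplets, was 6.72-fold (adjusted p = 3.01e-12). Fitm1 and Fitm2, which take part in droplet formation, were 2.63-fold and 2.02-fold, and Plin5, the perilipin of oxidative tissues, 1.81-fold. G0s2, an inhibitor of the triglyceride lipase Pnpla2, was at 0.636-fold (adjusted p = 0.591). Of 9 lipolysis genes 3 were called higher: Abhd6, another monoglyceride lipase (1.88-fold), Ces1f, a carboxylesterase (1.82-fold), and Pnpla2 itself (1.69-fold, adjusted p = 0.0065). None of the 4 tested glycerol genes was called. Aqp9, the main glycerol channel of the hepatocyte, was at 1.09-fold (adjusted p = 0.631), and Gk, glycerol kinase, was detected on fewer than 3 arrays. Of 8 genes of triglyceride synthesis 2 were called higher, Gpam (2.44-fold, adjusted p = 0.0349) and Lpin2 (1.89-fold, adjusted p = 0.0273), and 1 lower, Dgat2, which catalyses the last step (0.644-fold, adjusted p = 0.000177).

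The list of oxidation genes, which holds well-known PPARα targets, had the largest share of calls. Of its 9 tested genes 8 were called higher at 6000 ppm DEHP, with a median of 1.84 on the log2 scale. Cyp4a14, a fatty acid hydroxylase, was 29.6-fold, Ehhadh, of peroxisomal oxidation, 23.2-fold, the thioesterase Acot1 21.6-fold, and Cpt1b, a carnitine palmitoyltransferase, 4.27-fold. With 12000 ppm BBP 8 of the 9 were called higher as well (median 1.42). At 10000 ppm DNOP 3 of the 9 were called higher (median 0.89), while none of the 7 tested among the 10 genes described above was. Of these 7, Cidec and Aqp3 were detected in no DNOP sample.

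**Figure D5:**
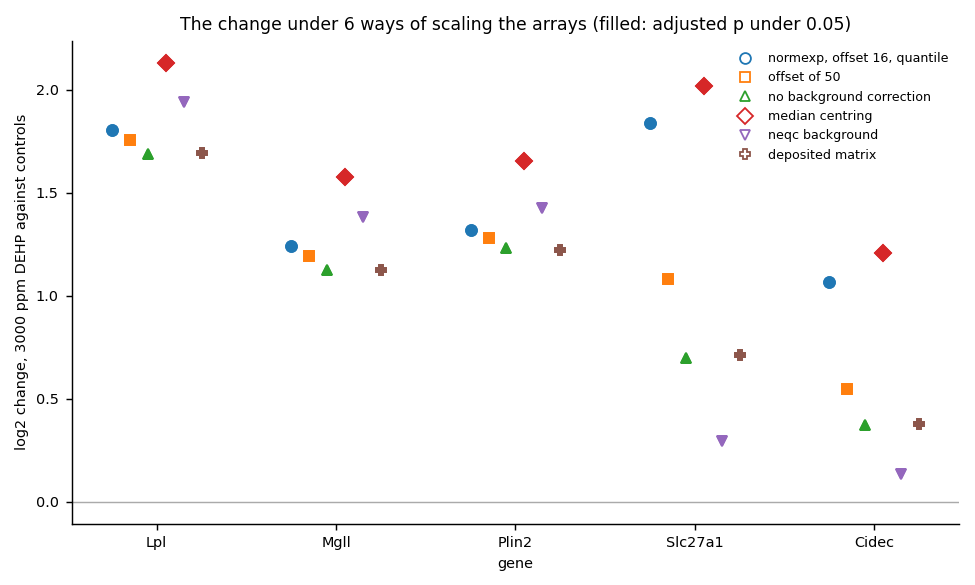
Log2 change of 5 genes at 3000 ppm DEHP against the controls (y axis) under 6 ways of scaling the arrays, shown by colour and marker, with filled markers where the adjusted p is under 0.05. All markers are filled. The fold of Lpl runs from 3.22 to 4.38, of Mgll from 2.18 to 2.98 and of Plin2 from 2.33 to 3.14, while the dim genes Slc27a1 and Cidec run from 1.23 to 4.05 and from 1.10 to 2.31.

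Ordered by group mean, Mgll had 1 gap. The groups at 6000 ppm DEHP (10.63 ± 0.28), 3000 ppm DEHP (10.49 ± 0.17), 12000 ppm BBP (10.32 ± 0.12) and 1500 ppm DEHP (10.25 ± 0.08; SD, n = 4 each) overlapped each other in turn. The next group, 10000 ppm DNOP (9.61 ± 0.27, n = 3), lay below all of them, and from there to the lowest, 300 ppm phenobarbital (8.40 ± 0.22), each neighbour overlapped the next. Lpl had no such gap: from 6000 ppm DEHP (11.52 ± 0.37) down to the phthalate controls (9.54 ± 0.29, n = 10), every group overlapped its neighbour in the order. The groups at 750 ppm DEHP (10.84 ± 0.28) and 12000 ppm BBP (10.84 ± 0.64) stood side by side there, followed by 600 ppm phenobarbital (10.48 ± 0.58). These orders mix the phthalate and phenobarbital parts, whose controls stood at unlike levels. The phenobarbital controls averaged 10.12 in Lpl and 8.71 in Mgll, the phthalate controls 9.54 and 9.25. Against its own controls Lpl at 600 ppm phenobarbital was 0.35 higher on the log2 scale, without a call.

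Over the 18 group means, the genes of the table that run most like each of 6 of the tested genes were ranked by Pearson's r, as a description with no test, since all groups went through 1 scaling and the doses of a compound are related. For Mgll they were Crat (0.987), Serinc2 (0.986) and Acot8 (0.983). For Slc27a1 they were Ctse (0.976), Cpt1b (0.971) and P2ry14 (0.968). For Plin2 they were Tgoln1 (0.968), Eci1 (0.959) and Lgals4 (0.951), and for Cidec Pknox2 (0.954), Cyp2b9 (0.946) and Slc27a1 (0.939). For Lpl the likeness was lower, with Srxn1 (0.912), Ephx1 (0.904) and Bhlhb9 (0.898), and so it was for Gpd1, with Adcy6 (0.919), Gstk1 (0.916) and Ndufb8 (0.912). Within the 10 genes the highest values were 0.941 between Plin2 and Mgll and 0.939 between Slc27a1 and Cidec, while Lpl and Plin2 had 0.519. All these values pool the phthalate and phenobarbital parts. Means of the phenobarbital controls were lower than those of the phthalate controls in Plin2 and Mgll and higher in Lpl. The part of this in the correlations was not tested. Lpl was called higher at 750 ppm DEHP, where Plin2, Mgll, Slc27a1 and Cidec were not, but the genes were not compared with each other by a test. The Lpl call there was lost in several alternatives, and Mgll was called there without the controls numbered 32.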

How the data were processed

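Liver RNA of 77 samples in 18 groups was read on Illumina bead arrays. The deposited table holds, per the file headers, the average bead intensity of each of 18138 array IDs and its detection p-value against negative control beads, neither background-subtracted nor normalized. A deposited matrix of normalized intensity served as an alternative, and its method is not given in the sources used here. In R 4.3.3 with limma 3.58.1, background was corrected with normexp, taking its mean and SD from detection p-values on the grid of 798 negative controls. An offset of 16, log2 and quantile normalization followed. IDs were matched to current symbols through the RefSeq gene table (14307 by symbol, 2703 by synonym, 1128 unmatched). The 11324 IDs detected (p under 0.05) on at least 3 arrays entered 1 fit of 18 group means, with the number in each label (62 numbers) as a random block (correlation 0.0993, 59 residual degrees of freedom). Adjusted p-values are Benjamini-Hochberg values over all tested IDs of a comparison, called under 0.05 with no fold threshold, and intervals are 95%. "At least" folds apply where no array of the dim group detected the gene, and none is given for Aqp3. They set the bright group against the dim probe or, where higher, the signal at the detection threshold of each array (median over IDs on that grid with a detection p of 0.04 to 0.05, from 4.70 to 5.29). This level was chosen after seeing the data, since IDs off the grid can be detected at lower signals. The same script was tested on simulated data.

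The 10 genes and all lists were chosen with earlier results of these data known. All 10 are named. Of each pathway list, up to 4 called genes with the largest change at 6000 ppm DEHP are named, besides Angptl4, Gpihbp1, Pnpla2, G0s2, Gk, Aqp9, Fabp4 and Vldlr, and the 3 genes most like each tested member, except those of Aqp3, which are not reported here. Of the other marker lists drawn up for this work (endothelial, stellate and fibroblast, enterocyte, bile duct, lymphocyte and muscle), summed levels in the controls and at 3000 ppm DEHP were 3553 and 3123, 4666 and 3963, 2862 and 931, 238 and 286, 49.3 and 43.4, and 229 and 26.5. The muscle mean in the controls is carried by 1 array at 2060, and the medians were 25.1 and 27.5. Alternatives were other background corrections, an offset of 50, median centring, the deposited matrix, no filter, other treatments of the block, array weights, and leaving out samples, with the block correlation kept at its value. Precision is limited by how many arrays each group has.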

Additional observations from a re-analysis of the deposited data

Results flagged for a closer look

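In 5 of the 79 groups of 4 to 10 samples examined, 1 sample lay apart from the others by Dixon's criterion, which chance meets in about 1 in 20 groups. Plin2 at 1500 ppm DEHP had its lowest sample, replicate 3, at 9.35, with the others between 10.78 and 10.95. Cidec at 3000 ppm DEHP had its highest, replicate 2, at 6.40, with the others between 5.22 and 5.38. Mgll at 12000 ppm BBP had replicate 4 at 10.5 above 3 samples at 10.23 to 10.28. Gpd1 at 1500 ppm BBP had replicate 3 at 8.68 above 3 samples at 7.49 to 7.68. Gpd1 at 600 ppm phenobarbital had replicate 2 at 7.11 below 3 samples at 7.55 to 7.64.

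The effects of DEHP and BBP at the same dose differed by limma's test of the difference itself in 11 cases, each larger with DEHP. On the log2 scale the differences at 1500 ppm were 0.88 for Slc27a1 and 1.21 for Mgll. At 3000 ppm they were 1.75 for Slc27a1, 1.42 for Lpl, 1.41 for Plin2, 1.15 for Cidec and 1.32 for Mgll. At 6000 ppm they were 1.77 for Slc27a1, 1.48 for Lpl, 0.75 for Cidec and 1.19 for Mgll. Those of Slc27a1 and Cidec are differences from BBP groups at or near background (Slc27a1 detected in 1, 2 and 0 of 4 samples from the lowest dose, Cidec in none), so they depend on the treatment of the background and are no measure of size.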

How the results depend on the processing

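In the 24 planned comparisons the 39 calls of these genes were set against 828 alternatives, of which 782 kept the call, 43 lost it and 3 turned its direction. The 129 results without a call were set against 2819, of which 40 gained a call, 3 of them with the direction turned. In the 4 comparisons of neighbouring doses the 4 calls were set against 72, of which 59 kept the call and 13 lost it, and the 24 results without a call against 432, of which 4 gained one. Those that turned did so with each array centred on its median, which moved the median of all genes: Gpd1 at 150, 300 and 600 ppm phenobarbital was 0.289, 0.179 and 0.295 on the log2 scale, and, with a call, Mgll at 150 and 600 ppm was 0.88 and 0.977 and Gpd1 in phenobarbital against phthalate controls -0.609 (adjusted p = 0.00889, 0.00438 and 0.0121). The cause was not tested.

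Counts of the 10 genes called moved by over 1.5 times as follows. With array weights they were 3 for BBP 12000 against 1500 ppm and 4 for 12000 against 6000 ppm (each 1 before), 2 for DEHP 1500 against 750 ppm (1), 4 for DEHP against BBP at 1500 ppm (2), 1 at 10000 ppm DNOP (0), 0 between the controls (2) and 1 at 300 and at 600 ppm phenobarbital (2). With samples of 1 label number averaged they were 2 for BBP 12000 against 1500 ppm, 0 at 750 ppm DEHP (1), and 1 between the controls and at 150, 300 and 600 ppm phenobarbital. With median centring they were 0 for BBP 12000 against 6000 ppm, 0 for DEHP 1500 against 750 ppm, 0 at 750 ppm DEHP and 4 between the controls. DEHP 1500 against 750 ppm had 0 also with the background from all detection p-values, without background correction and in the deposited matrix. DEHP against BBP at 1500 ppm had 1 with the background from all detection p-values. Without the controls numbered 32 the count was 2 at 750 ppm DEHP and 1 between the controls.

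Leaving out 1 sample at a time, the counts ran from 0 to 1 at 750 ppm DEHP, 3 to 4 at 1500 ppm, 5 to 5 at 3000 ppm, 4 to 5 at 6000 ppm and 1 to 3 at 12000 ppm BBP. They ran from 0 to 2 at 150, 300 and 600 ppm phenobarbital, 0 to 1 at 75 ppm and 0 to 3 between the controls. For DEHP against BBP they ran from 2 to 4, 4 to 5 and 3 to 4 at the 3 doses. They ran from 1 to 2 for BBP 12000 against 1500 ppm, 0 to 1 for DEHP 1500 against 750 ppm and 1 to 2 for 3000 against 1500 ppm. In the other BBP and all DNOP comparisons with controls they stayed at 0.

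Samples of the same replicate number did not deviate together (median correlation 0.0557 against -0.0238 for other numbers among phthalate samples, and -0.0621 against 0.0391 with phenobarbital). With the replicate block, BBP 12000 against 1500 ppm had 2 calls in place of 1 (Plin2, adjusted p = 0.0363). Lpl in DEHP against BBP at 1500 ppm (0.0369) and Plin2 between the controls (-1.20 on the log2 scale, 0.0137) were called as well, and no call was lost. Signal over background limits Slc27a1, Cidec and Aqp3, and leaves Cd36, Fabp1 and Fabp2 unmeasured.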
